A study of Homo sapiens with 18 samples.

Results

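Omni-ATAC-seq uses a transposase to insert sequencing adapters where DNA is open, and it was applied here to Raji cells, a Burkitt lymphoma line of B-cell origin. The results concern the distal regions that were more accessible in GFP low than in GFP high cells at every time sampled. They were chosen by these values: a region qualified when L was at least 0.4 at each of 24, 48 and 72 h. L is the log2 ratio of GFP low to GFP high counts scaled to library size (CPM), with 0.2 CPM added to both. The mean count per column also had to reach 30, and the peak centre had to lie more than 1 kb from both ends of every RefSeq protein-coding gene on GRCh38. Of 71318 peaks, each 501 bp wide on hg38, 57591 were distal in this sense and 50394 of those had enough counts. The rule was met by 238 peaks, which is 0.472% of the 50394 and 0.334% of all peaks. They are called raised distal peaks here, and the remaining 50156 distal peaks with enough counts are the set they are compared with.

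The groups were GFP low cells at 24, 48 and 72 h and GFP high cells at the same times. The labels give the line as Raji and the genotype as Smarca4+/+ for all 18 samples, with 3 replicates in each group. The series concerns degradation of SMARCA4 (BRG1) through an auxin-inducible degron, and the labels say neither what GFP reports nor which GFP level goes with loss of the protein. They also name no clone, culture or dose of auxin. Within a group the 3 columns showed a variance of 1.78 to 1.81 times that of counting, against 2.21 to 3.47 between times of the same GFP level, so they were summed and counted as 1 library. This left 3 libraries per GFP level, 1 at each time, with 27646157, 28161886 and 29790483 counts in GFP low cells and 22908652, 29503529 and 24677828 counts in GFP high cells. The labels do not tie libraries to separate cultures, so p-values measure only the spread between these libraries, which may be technical. With 1 library per GFP level and time, that spread is how far the GFP difference varied between times. It cannot be told apart from a real change of that difference with time. Of 6 B-cell markers, 5 had a gene-end peak, and these peaks summed to 182 to 189 CPM in GFP low libraries and 179 to 189 CPM in GFP high libraries. Gene-end peaks were also found at 6 of 14 T-cell markers, where they summed to 88.4 to 98.6 CPM in GFP low and 110 to 115 CPM in GFP high libraries. The part of this T-cell difference in the results was not tested. At 3 of 12 myeloid markers they summed to 78.5 to 93.2 CPM in GFP low and 78.5 to 82.3 CPM in GFP high libraries. At 3 of 10 epithelial and stromal markers the sums were 54.7 to 62.1 CPM and 54.3 to 57.9 CPM. The counts do not measure the SMARCA4 protein.

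SMARCA4 is an ATPase of the BAF complexes, which use ATP to slide or evict nucleosomes and so keep DNA open to transcription factors. Open regions away from gene starts include enhancers, where such factors bind and act on promoters at a distance, and many enhancers are known to need BAF activity to stay open. An ATAC-seq count at such a region measures how often the transposase reached it, and in a bulk population a small change in every cell and a large change in a few cells cannot be told apart.

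Sequence could be read where a raised distal peak overlapped an annotated transcription start of a lncRNA or a start inside a protein-coding gene. This was so for 6 of the 238 peaks (2.52%) and for 1926 of the other distal peaks (3.84%). RefSeq (GRCh38.p14) gives the 250 bases before each start, and the median GC content of these bases was 43% at the 6 raised distal peaks, against 61.2% at the other distal peaks and 58.4% over all 34961 windows. The median number of CpG dinucleotides was 2, against 15 and 11. The 3 windows that lay entirely within a raised distal peak are shown, since they include both AT-rich and CpG-rich starts. The first is the alternative start inside EPS15, an adaptor of clathrin-mediated endocytosis, at chr1:51422096-51422345 on the minus strand. The second is the start of the lncRNA LINC02552 at chr11:104609303-104609552 on the minus strand. The third is an annotated start inside PREX1, an exchange factor for Rac GTPases, at chr20:48828000-48828249 on the minus strand. Its peak lies 60.1 kb from the nearest gene end, and which start of PREX1 is the main one was not determined. Capitals mark the motif matches described after the sequences.
EPS15: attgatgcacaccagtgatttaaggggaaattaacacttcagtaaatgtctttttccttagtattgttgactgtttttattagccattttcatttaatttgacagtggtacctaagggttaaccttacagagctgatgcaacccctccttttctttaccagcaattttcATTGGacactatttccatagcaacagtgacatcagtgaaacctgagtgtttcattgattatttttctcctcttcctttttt
LINC02552: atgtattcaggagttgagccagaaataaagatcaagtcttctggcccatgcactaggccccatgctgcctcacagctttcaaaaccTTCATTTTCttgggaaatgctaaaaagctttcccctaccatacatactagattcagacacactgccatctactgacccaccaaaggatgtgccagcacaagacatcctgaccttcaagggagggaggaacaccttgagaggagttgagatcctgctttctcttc
PREX1: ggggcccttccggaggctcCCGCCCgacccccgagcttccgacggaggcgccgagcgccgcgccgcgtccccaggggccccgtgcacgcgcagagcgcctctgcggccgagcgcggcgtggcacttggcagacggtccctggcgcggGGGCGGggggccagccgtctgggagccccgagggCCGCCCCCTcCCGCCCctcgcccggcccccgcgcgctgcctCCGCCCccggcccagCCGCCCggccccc

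The bases before the EPS15 start were 35.2% GC with 0 CpG, those before the LINC02552 start were 46.8% GC with 0 CpG, and those before the PREX1 start were 84.8% GC with 39 CpG. Among 18 short motifs searched on both strands, the EPS15 window held 1 CCAAT box (CCAAT), which 32% of all windows hold. The LINC02552 window held 1 match to an interferon regulatory factor motif (GAAANNGAA), present in 6.88% of all windows. The PREX1 window held 6 GC boxes (GGGCGG), present in 42.7% of all windows, and 1 CTCF core (AGGGGGC), present in 13.4%; the CTCF core overlapped a GC box. Of the 3 windows that lay only partly within a raised distal peak, 2 belonged to lncRNAs with a CCAAT box (LOC124906076 and LOC105378017, the second also with the interferon regulatory factor motif) and 1 to the lncRNA LOC105370964, with a TEAD motif (GGAATG, in 11.9% of all windows). Matches describe the letters only. All 3 printed windows lie in weakly to moderately accessible peaks. The EPS15 peak had 7.56, 7.49 and 7.55 CPM at 24, 48 and 72 h in GFP low cells and 4.85, 5.49 and 4.82 CPM in GFP high cells. The LINC02552 peak had 10.8, 10.7 and 9.53 CPM in GFP low cells and 7.42, 7.90 and 6.20 CPM in GFP high cells. The PREX1 peak had 12.7, 10.7 and 14.7 CPM in GFP low cells and 9.21, 7.83 and 10.3 CPM in GFP high cells. At each of the 3 peaks every GFP low library was above every GFP high library.

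The rise was moderate at nearly all of the 238 peaks. At 24, 48 and 72 h the median level was 6.85, 6.60 and 6.31 CPM in GFP low cells and 4.54, 4.54 and 4.13 CPM in GFP high cells, and the median L was 0.55, 0.56 and 0.52. The other distal peaks had medians of 6.80, 6.89 and 6.68 CPM in GFP low cells and 7.86, 7.52 and 7.58 CPM in GFP high cells, with median L of -0.12, -0.06 and -0.11. These values chose the peaks and are a description. Together the raised distal peaks took 0.194%, 0.196% and 0.186% of the counts in GFP low libraries and 0.130%, 0.130% and 0.124% in GFP high libraries. At least 2-fold higher levels were found for 5 of the 238 at 24 h, for 4 at 48 h and for 2 at 72 h, but for 0 at all 3 times. Over all distal peaks with enough counts, 37 (0.0734%), 48 (0.0952%) and 18 (0.0357%) were at least 2-fold higher at these times; the rule used this contrast, so nothing is read from the members' counts. The lowest L of the 3 times was under 0.5 at 182 peaks and at least 0.6 at 15.

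Being raised at 1 time was common and being raised at all 3 times was not. An L of at least 0.4 was found at 4966 distal peaks at 24 h (9.85%), 4825 at 48 h (9.57%) and 2792 at 72 h (5.54%). Exactly 1 time passed at 8049 peaks, 2 times at 1910 and 3 times at 238. In the opposite direction, L was -0.4 or lower at all 3 times at 8560 distal peaks (17% of those with enough counts). Among the peaks within 1 kb of a gene end with enough counts, 14 of 13494 (0.104%) met the same thresholds as the raised distal peaks. The 3 GFP low libraries were all above the 3 GFP high libraries at 226 of the 238 raised distal peaks, against 14.4% of distal peaks with enough counts; the rule used this contrast, so nothing is read from the count. In edgeR's quasi-likelihood fit over the times, all 238 were called higher (Benjamini-Hochberg adjusted p under 0.05) where 13.4% of all peaks were, and DESeq2 called 179 higher where 5.22% of all peaks were; the rule had fixed that direction, so again nothing is read from it.

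Which peaks met the rule changed with the columns used and with the scaling, and not every counting interval lay above 0. The 95% counting interval of L, with the variance widened 1.8 times for the spread between columns, lay above 0 at 190, 220 and 189 of the 238 peaks at 24, 48 and 72 h, and at 156 at all 3 times. When the V0, V1 or V2 columns were left out of every group, 332, 330 and 339 peaks met the rule, and 129, 117 and 114 of these were among the 238. With scaling that follows abundance (loess) in place of scaling by total count, 1118 distal peaks met it, among them 235 of the 238. Some peaks lay close to the threshold on either side. Just inside lay a peak 8.3 kb outside ARL14EP and one inside the neurexin gene NRXN3, both with a lowest L of 0.401, and a peak 8.6 kb outside the potassium channel gene KCNQ3 with 0.402. Just outside lay peaks inside the muscarinic receptor gene CHRM3, with a value just under 0.4, and inside the teneurin gene TENM3 and the O-GlcNAc transferase gene OGT, both with 0.399.

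The peaks highest by the smallest L of their 3 times were found both inside and far outside genes. Of the 12 with the largest lowest L, 7 lay inside a gene, 3 outside one within 50 kb, and 2 with no protein-coding gene within 50 kb. A peak 20 kb outside LOC124903734 (chr16:84266309-84266809) had 6, 8.77 and 8.22 CPM at 24, 48 and 72 h in GFP low cells and 3.54, 4.64 and 4.86 CPM in GFP high cells. Its L was 0.73, 0.89 and 0.73, with a 95% counting interval of 0.24 to 1.22 at 24 h. The lowest GFP low library was above the highest GFP high library. Inside RYK, the gene of a Wnt receptor of the receptor tyrosine kinase family, a peak (chr3:134197582-134198082) had 7.63, 7.74 and 6.11 CPM in GFP low cells and 4.50, 4.17 and 3.61 CPM in GFP high cells. Inside SEL1L3, a peak (chr4:25767828-25768328) had 6.26, 6.21 and 6.45 CPM in GFP low cells and 3.32, 3.69 and 3.44 CPM in GFP high cells. Neither pair of groups overlapped, and at SEL1L3 the libraries of a GFP level stayed close to each other at all 3 times, with means of 6.31 ± 0.123 CPM in GFP low cells and 3.49 ± 0.192 CPM in GFP high cells (SD over times, n = 3 libraries each).

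SDK1, which encodes a cell adhesion molecule of the immunoglobulin superfamily, held the strongest of these 12 peaks (chr7:3762095-3762595). It had 30.5, 44.1 and 32.9 CPM in GFP low cells and 18.5, 25.6 and 17.1 CPM in GFP high cells. Both GFP levels were highest at 48 h, and L was 0.72, 0.78 and 0.94, with an interval at 72 h of 0.72 to 1.16. Inside HIPK3, a gene of a homeodomain-interacting protein kinase, a peak (chr11:33347425-33347925) had 10.2, 9.73 and 6.75 CPM in GFP low cells and 5.72, 5.46 and 4.21 CPM in GFP high cells. Inside WDR5, whose product is a subunit of histone H3 lysine methyltransferase complexes, a peak (chr9:134146702-134147202) had 3.54, 4.12 and 4.6 CPM in GFP low cells and 2.18, 2.44 and 2.80 CPM in GFP high cells. The HIPK3 peak was lowest and the WDR5 peak highest at 72 h in both GFP levels, and neither pair of groups overlapped. Inside ITGA9, the gene of an integrin alpha subunit, the raised peak (chr3:37779470-37779970) was the gene's sole peak with enough counts; it had 6.44, 4.79 and 5.37 CPM in GFP low cells and 3.49, 2.71 and 3.36 CPM in GFP high cells. The other 5 lay inside the glutamyl-prolyl-tRNA synthetase gene EPRS1, 6.1 kb outside the small secreted glycoprotein gene MUCL1, 49.9 kb outside the oligodendrocyte transcription factor gene OLIG1, within the lncRNA gene DIRC3 on chromosome 2, and on chromosome 10 within the lncRNA gene LOC124902439. Their mean levels were 4.18 to 6.31 CPM in GFP low cells and 2.35 to 3.73 CPM in GFP high cells, and their lowest L was 0.642 to 0.697.

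**Figure D1:**
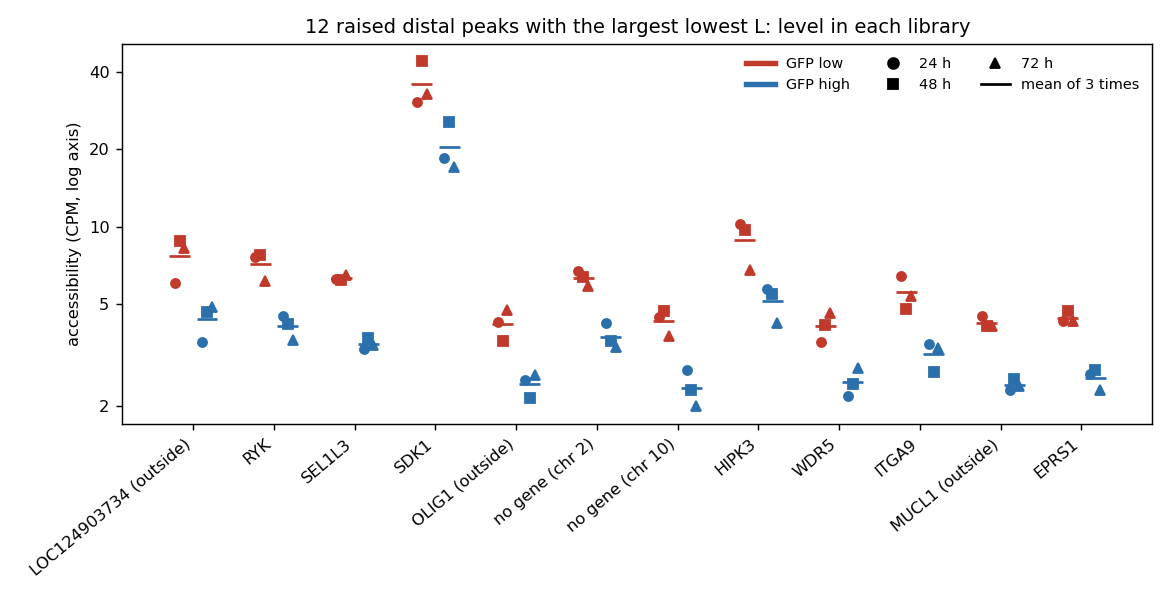
Accessibility (CPM, log axis) of the 12 raised distal peaks with the largest lowest L, in GFP low (red) and GFP high (blue) libraries at 24 h (circles), 48 h (squares) and 72 h (triangles), with the mean of the 3 times as a line. At each peak the 3 GFP low libraries lie above the 3 GFP high libraries, and the SDK1 peak, at 30.5 to 44.1 CPM in GFP low cells, stands above the other 11.

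Few raised distal peaks were strongly accessible. Of the 238, 5 (2.1%) averaged above 20 CPM over both GFP levels, against 11.5% of the other distal peaks. The highest lay inside FRMD4A, a gene of a FERM-domain scaffold protein of cell polarity (chr10:14185472-14185972), and had 54.9, 49.6 and 48.1 CPM in GFP low cells and 41.4, 36.6 and 35.5 CPM in GFP high cells. Its L was 0.41, 0.44 and 0.44. The next lay inside the protocadherin gene PCDH9 (chr13:66995147-66995647) and had 33.4, 50 and 45.6 CPM in GFP low cells and 23.8, 31.1 and 28.4 CPM in GFP high cells. At both peaks the lowest GFP low library was above the highest GFP high library, and the counting intervals of L lay above 0 at every time. After these came the SDK1 peak described above, with L of 0.72, 0.78 and 0.94. A peak on chromosome 6 with no gene within 50 kb (chr6:167734259-167734759) had 27.8, 27.1 and 23.9 CPM in GFP low cells and 20.6, 17.8 and 14.2 CPM in GFP high cells, so that its L was 0.43, 0.60 and 0.74. A peak 23.6 kb outside HYCC1, the gene of hyccin, a partner of phosphatidylinositol 4-kinase, was level over time at 25.4, 25.7 and 25.4 CPM in GFP low cells and 17.9, 17 and 16.3 CPM in GFP high cells. Over all 238, the highest L fell at 24 h for 80 peaks, at 48 h for 96 and at 72 h for 62. L rose at both steps at 31 peaks and fell at both at 40, and its range over the times had a median of 0.186.

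Raised distal peaks had a lower mean level over both GFP levels than the rest, and lay farther from genes and from other peaks. These shares describe the peaks and were not put to a test. A protein-coding gene contained 111 of the 238 (46.6%, against 54.1% of the other distal peaks), 73 lay outside with a gene within 50 kb (30.7% against 26.3%) and 54 had none within 50 kb (22.7% against 19.6%). The median distance to a gene end was 37.3 kb, against 27.5 kb. More than 250 kb separated 40 of the raised distal peaks from any gene end (16.8%, with an exact 95% binomial interval of 12.3 to 22.2% that covers the counting of peaks only), against 8.62%, and more than 500 kb separated 21 (8.82% against 3.44%). A lncRNA gene contained 41 (17.2% against 15.2%). No other peak lay within 10 kb at 143 (60.1%, interval 53.6 to 66.4%), against 38.4% of the other distal peaks, and the median number of other peaks within 50 kb was 2, against 4. The mean level of the raised distal peaks over both GFP levels had a median of 5.57 CPM, against 7.21 CPM. This mean includes the GFP high libraries, which the rule held below GFP low, so the difference is not free of the rule. In GFP low cells alone the medians were 6.85, 6.60 and 6.31 CPM at 24, 48 and 72 h, against 6.80, 6.89 and 6.68 CPM.

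Weak peaks have wider counting error, and more of them passed the rule. Distal peaks were split into 10 equal bins by mean level over both GFP levels. The weakest bin, at 3.25 to 3.91 CPM, held 49 raised ones (0.972%). The strongest, from 21.6 CPM up, held 4 (0.0794%). The median standard error of L was 0.223 at the raised distal peaks and 0.194 at the others. The part of level in the difference in position was not tested; shares are given on both sides of the median level. At or above the median level of 7.2 CPM, 50% of 68 raised distal peaks had no other peak within 10 kb, against 27% of the others, and 16.2% lay over 250 kb from a gene end, against 6.32%. Below it, the shares were 64.1% of 170 against 49.8%, and 17.1% against 10.9%. By distance, the share raised was 0.347% at 1 to 5 kb from a gene end, 0.405% at 5 to 10 kb, 0.408% at 10 to 25 kb, 0.530% at 25 to 50 kb, 0.413% at 50 to 100 kb, 0.474% at 100 to 250 kb, 0.725% at 250 to 500 kb and 1.20% beyond 500 kb. It did not rise evenly with distance, and the last 2 bins held 19 and 21 raised distal peaks.

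**Figure D2:**
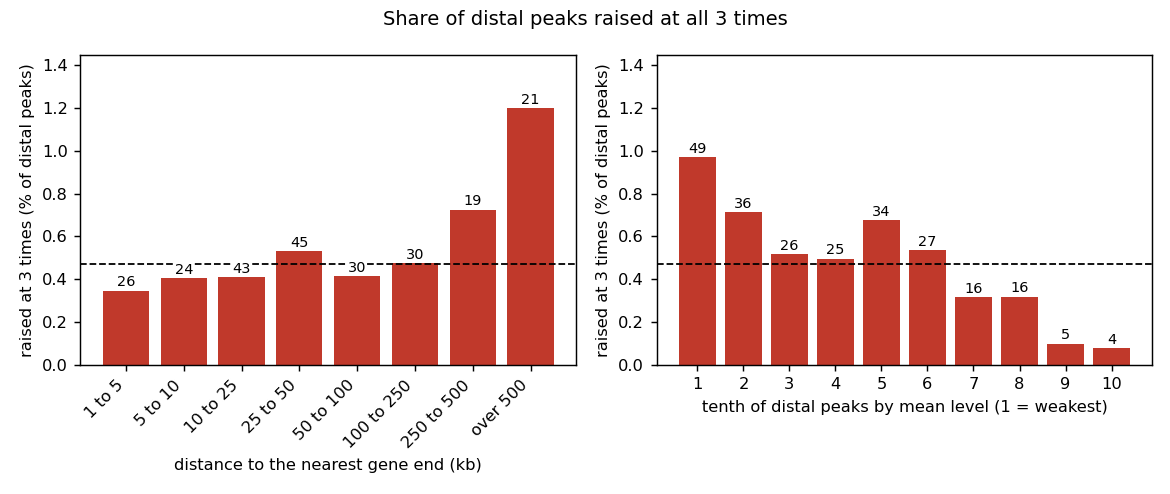
Share of distal peaks with enough counts that were raised at all 3 times (%), by distance to the nearest gene end in kb (left) and by 10 equal bins of mean level (right, 1 the weakest); numbers over the bars count raised peaks and the dashed line is the share over all, 0.472%. The share is 1.20% beyond 500 kb from a gene end, and it is 0.972% in the weakest bin and 0.0794% in the strongest.

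The peaks farthest from genes were not all weak. On chromosome 3, a peak 974.7 kb from the nearest gene end, with no other peak within 50 kb (chr3:145094518-145095018), had 18.8, 17.4 and 17.3 CPM in GFP low cells and 11.3, 11 and 11.5 CPM in GFP high cells. Its L was 0.72, 0.65 and 0.58, and the lowest GFP low library, at 17.3 CPM, was well above the highest GFP high library, at 11.5 CPM. The peak farthest from any gene end, at 1430.8 kb on chromosome 19 (chr19:27774268-27774768), had 7.05, 7.03 and 4.93 CPM in GFP low cells and 4.89, 4.98 and 3.04 CPM in GFP high cells. There the lowest GFP low library, at 72 h, was below the GFP high library of 48 h, so the groups overlapped although L was at least 0.481 at each time. The other 3 of the 5 farthest lay on chromosomes X, 4 and 18, at 1364.4, 1135.7 and 1096.2 kb, with means of 4.15, 4.18 and 4.70 CPM in GFP low cells and 2.66, 2.58 and 3.20 CPM in GFP high cells.

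Raised distal peaks were spread over the genome. They lay on 22 of 23 chromosomes in the table, and the median share of distal peaks raised was 0.469% over chromosomes. Chromosome 20 had 14 of 1027 (1.36%), X had 10 of 1137 (0.88%) and 3 had 24 of 3771 (0.636%), while 17 had 1 of 1148 (0.0871%) and 22 had 0 of 407. On 20 they included pairs near the matricellular protein gene CCN5 and the potassium channel gene KCNK15, and near the docking protein gene DOK5. In all, 230 of the 238 had no other raised distal peak within 50 kb. The 4 pairs that did lay between ZNF511 and CALY, inside HIPK3, between CCN5 and KCNK15, and outside DOK5, with 5.21, 2.90, 2.51 and 12.2 kb between centres and 0 other peaks in between. The second HIPK3 peak had 5.53, 6.25 and 4.46 CPM in GFP low cells and 3.84, 3.08 and 3.08 CPM in GFP high cells. The CALY peak had 5.21, 5.33 and 5 CPM in GFP low cells and 2.27, 3.8 and 3.32 CPM in GFP high cells, and its L of 1.13 at 24 h was among the 5 that reached 2-fold at that time. The third gene with 2 raised distal peaks besides HIPK3 and DOK5 was the protein O-fucosyltransferase gene POFUT3, where they lay inside the gene and more than 50 kb apart.

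Peaks around the raised distal peaks and other peaks of the same genes lay on both sides of 0. Of the 95 raised distal peaks with another peak within 10 kb, those neighbours averaged an L above 0 at 53 (55.8%, against 38.8% for the other distal peaks) and -0.4 or lower at 17 (17.9% against 24%). The median over the 95 was 0.0561, against -0.103. The neighbours include raised distal peaks, as in the pairs 5.21, 2.90 and 2.51 kb apart, so the rule set part of these values. The 184 raised distal peaks with a gene belonged to 181 genes, of which 15 had no other peak with enough counts. Other distal peaks of these genes numbered 1047, with a median mean L of -0.10, and edgeR called 85 higher (8.12%) and 348 lower (33.2%) in GFP low; for distal peaks of all other genes the median was -0.06, with 8.91% higher and 29.3% lower. Gene-end peaks of the genes with a raised distal peak had median L of 0.15, 0.16 and 0.16 at 24, 48 and 72 h, against 0.22, 0.07 and 0.15 at the other genes, and edgeR called 60 of 126 higher (47.6%, against 34.8%).

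BCL6, which encodes the transcriptional repressor that drives the germinal centre reaction, had a raised distal peak 1.3 kb outside the gene (chr3:187719829-187720329). It had 14.1, 15.1 and 17.9 CPM in GFP low cells and 8.95, 9.08 and 11.7 CPM in GFP high cells. Its L was 0.65, 0.72 and 0.61, with counting intervals above 0 at every time, and the groups did not overlap. Of the other 9 peaks of BCL6, edgeR called 4 higher and 3 lower in GFP low, with mean L of -0.97 to 0.60 and a median of 0.42 at its 2 gene-end peaks. Other genes were counted in the same way. At SEL1L3, 1 other peak was called higher and 6 lower, with mean L of -0.67 to 0.41, and at SDK1 1 was called higher and 4 lower. At HIPK3, 2 of the 6 other peaks were called higher and 0 lower. At NRXN3, 2 of 22 other peaks were called higher and 12 lower.

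**Figure D3:**
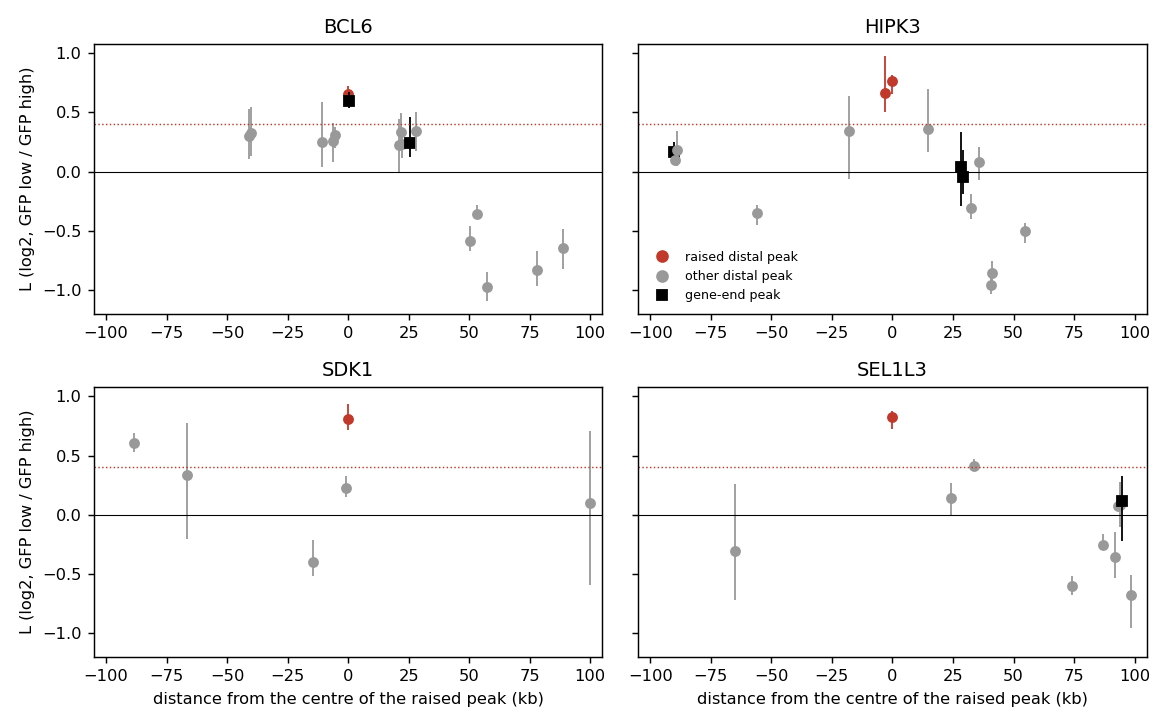
L (log2 of GFP low over GFP high) of every peak within 100 kb of a raised distal peak of BCL6, HIPK3, SDK1 and SEL1L3, against distance from that peak's centre in kb; points are means of the 3 times, lines run over the 3 times, and the dotted line marks L of 0.4. At BCL6 the raised peak (L of 0.61 to 0.72) sits beside a gene-end peak with a mean L of 0.60, while other peaks of the gene reach -0.97.

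Gene lists of B-cell biology and of other functions were set beside the raised distal peaks. The 17 lists (241 genes, chosen with earlier results of these data known) covered 1262 distal peaks with enough counts, of which 3 (0.238%) were raised at all 3 times, against 0.472% of all such peaks. They belonged to BCL6 among dark zone genes, ELL2 among plasma cell genes and COL4A1 among adhesion and matrix genes, and 14 lists had none. The ELL2 peak lay inside this gene of a transcription elongation factor that acts in antibody secretion (chr5:95892687-95893187), and it had 5.43, 5.97 and 5.74 CPM in GFP low cells and 3.45, 3.97 and 4.13 CPM in GFP high cells. None was found among 276 distal peaks of B-cell identity regulators such as PAX5 and EBF1, 195 of B-cell receptor signalling genes, 131 of memory B-cell genes or 104 of BAF subunit genes. At 0.472% of distal peaks, lists of these sizes would hold about 1 or fewer, so these counts of 0 are near the background. In edgeR's fit over the times, 17 of the 276 peaks of identity regulators were called higher in GFP low and 74 lower, with a median mean L of -0.08. The counts were 9 higher and 74 lower for receptor signalling (median -0.23), 5 and 50 for memory genes (median -0.21) and 11 and 28 for BAF subunits (median -0.07). Over all distal peaks with enough counts, 4624 were called higher and 15388 lower, with a median of -0.07. The 29 distal peaks of adhesion and matrix genes had 6 higher, 8 lower and a median of 0.04.

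The rule set GFP low against GFP high at each time and did not use change in level with time. Change with time over both GFP levels was therefore tested. The error of this test comes from how L varied between times, and the rule set a floor on L at each time. The error is thus not free of the rule. Of the 238 peaks, edgeR's quasi-likelihood test with Benjamini-Hochberg adjustment over all 71318 peaks called 0 higher at 72 h than at 24 h (0.882% of all peaks were) and 3 lower (1.26%, against 1.87% of all peaks). At an unadjusted p under 0.05 there were 9 higher (3.78%, against 6.78% of all peaks) and 24 lower (10.1% against 9.18%). DESeq2 called 0 higher (0.224% of all peaks) and 0 lower (0.478%), with 3 (1.26%, against 3.3% of all peaks) and 10 (4.2% against 4.46%) at an unadjusted p under 0.05. With the 18 columns as separate libraries, edgeR called 5 higher (6.02% of all peaks) and 16 lower (7.33%). The median log2 change of the 238 was -0.066, against -0.011 for all distal peaks with enough counts. In GFP low cells alone the median log2 ratio of 72 h to 24 h was -0.08, against 0.00 for the other distal peaks, and in GFP high cells alone it was -0.05, against -0.03.

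Of the 3 that fell, the one with the largest change was a peak 27.5 kb outside COL4A1, the gene of a type IV collagen chain of basement membranes (chr13:110121232-110121732). It had 6.40, 5.65 and 2.48 CPM at 24, 48 and 72 h in GFP low cells and 3.40, 2.37 and 1.78 CPM in GFP high cells. The log2 change at 72 h against 24 h was -1.17 ± 0.25 (SE; edgeR adjusted p = 0.00943). Both GFP levels were lowest at 72 h, and the GFP low library of 72 h was below the GFP high library of 24 h, so the GFP groups overlapped. A peak on chromosome 6 with no gene within 50 kb (chr6:145198282-145198782) had 6.94, 4.79 and 4.06 CPM in GFP low cells and 4.80, 3.05 and 2.80 CPM in GFP high cells, a log2 change of -0.77 ± 0.21 (edgeR adjusted p = 0.0404). The third lay on chromosome 8, 75.2 kb from a gene end (chr8:6331173-6331673), and had 5.68, 4.47 and 3.09 CPM in GFP low cells and 4.02, 2.81 and 2.11 CPM in GFP high cells, a change of -0.90 ± 0.23 (edgeR adjusted p = 0.031). All 3 were lowest at 72 h in both GFP levels. None of the 3 passed in DESeq2, and each lost its call when a column set was left out. The COL4A1 peak did so without the V2 columns (log2 change -0.99), the chromosome 6 peak without V0 (-0.59) or V1 (-0.64), and the chromosome 8 peak without V1 (-0.96) or V2 (-0.64).

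No raised distal peak passed for a rise with time. Among the smallest p-values were those at peaks of PCDH9, with a log2 change of 0.36 ± 0.11 (edgeR adjusted p = 0.0676), of BCL6, with 0.37 ± 0.14 (adjusted p = 0.182), and of LOC124903734, with 0.46 ± 0.18 (adjusted p = 0.193). At the PCDH9, BCL6 and LOC124903734 peaks the level was lowest at 24 h in both GFP levels. At 48 h against 24 h, edgeR called 0 of the 238 higher and 0 lower (0% of all peaks in either direction), with 9 (3.78%, against 3.58% of all peaks) and 5 (2.1% against 3.95%) at an unadjusted p under 0.05. The fit on 18 columns called 3 higher (1.73% of all peaks) and 1 lower (1.34%). At 72 h against 48 h it called 0 higher (0.00561% of all peaks) and 0 lower (0.00421%), with 5 (2.1%, against 3.77% of all peaks) and 15 (6.3% against 4.66%) at an unadjusted p under 0.05. There the fit on 18 columns called 1 higher (1.37% of all peaks) and 5 lower (1.8%). DESeq2 called 0 of the 238 in both of these comparisons (0% of all peaks in each direction), with 3 (1.26%, against 1.62% of all peaks) and 1 (0.42% against 1.09%) at an unadjusted p under 0.05 in the first, and 1 (0.42% against 1.03%) and 5 (2.1% against 1.76%) in the second.

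**Figure D4:**
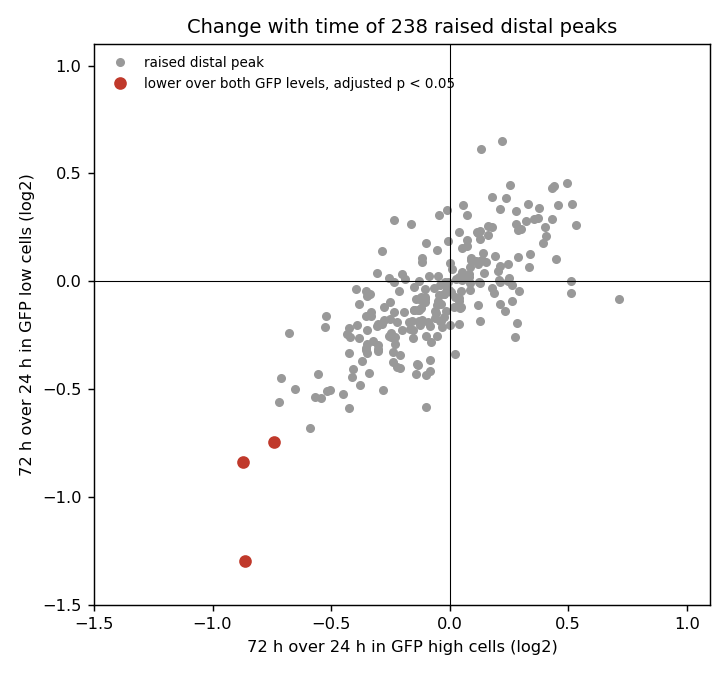
Log2 ratio of 72 h to 24 h in GFP low cells (vertical) and GFP high cells (horizontal) for each of the 238 raised distal peaks; red points are the 3 called lower over both GFP levels by edgeR. The medians are -0.08 in GFP low cells and -0.05 in GFP high cells, and the 3 red points lie below 0 in both.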

How the data were processed

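The values are raw counts of reads in each peak, as deposited, in 18 columns. The submitters' processing notes name R 4.2.1, deepTools, BWA and FastQC and the build hg38. How peaks were called, whether duplicates were removed and whether reads were shifted for the transposase is not given in these sources, and each could change the counts.

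Each header holds a GFP level, a D number read as time (D1, D2 and D3 as 24, 48 and 72 h) and a V number that was not matched to the replicate numbers. The 3 columns of a group were compared, found to differ by 1.8 times counting noise, and summed, which changed the planned samples of the tests. L used CPM by group total and a pseudocount of 0.2. Columns held 7106939 to 11171849 counts.

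Peaks took the protein-coding gene that contains their centre, or else the nearest within 50 kb, from a RefSeq table of GRCh38.p14 (19879 genes, 95 readthrough genes left out). Strand, exons, introns and UTRs were not used. The tests ran in R 4.3.3 with edgeR 4.0.16 (TMM scaling, robust quasi-likelihood fit of GFP level plus time, 2 residual degrees of freedom, a median of 22.6 prior degrees of freedom, Benjamini-Hochberg threshold 0.05) on 71318 peaks, of which the low-count filter removed 0. The biological coefficient of variation was 9.48%. The fit was tested on simulated data. Alternatives were DESeq2 1.42.0, other scalings, thresholds and filters, V numbers left out, and 18 columns with or without a block. Intervals are 95% intervals for counting error only.

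The raised distal peaks, gene lists and motifs were chosen with earlier results of these data known. Named peaks are the 12 with the largest lowest L, the 6 highest in level, those of listed genes, the 4 with the smallest p for time in each direction, the 3 just inside and outside the threshold, the 5 farthest from gene ends, and genes or runs with 2 raised distal peaks. The peaks on annotated starts were added for their sequence. Of the peaks this rule names, 1 is not reported here.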

Additional observations from a re-analysis of the deposited data

How the results depend on the processing

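The number of raised distal peaks depended on the thresholds. It was 889 with L of at least 0.3, 56 with L of at least 0.5, 120 with a pseudocount of 1 CPM, 121 with a mean count of at least 50, 156 with counting intervals above 0 at all times and 1118 with loess scaling. Leaving out 1 V number gave 330 to 339, of which 114 to 129 were among the 238. TMM scaling (325), no minimum count (321) and distances over 2 kb (231) or 5 kb (212) stayed within 1.5 times of 238.

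For 72 h against 24 h, DESeq2 called 0 raised distal peaks lower, where it called 0.478% of all peaks lower. Without V0, V1 or V2, edgeR called 3 (1.26%), 2 (0.84%) and 1 (0.42%) raised distal peaks lower. Of all 71318 peaks, those fits called 987, 947 and 827 lower. The V numbers paired the columns weakly at most. Deviations of same-numbered columns correlated at -0.00294 to 0.0523 (mean 0.0248), and those of other columns at -0.0442 to 0.0278 (mean -0.0124). With 18 columns as separate libraries, 5 (2.1%) were called higher and 16 (6.72%) lower at 72 h against 24 h. Over all peaks the shares were 6.02% and 7.33%. At 48 h against 24 h the counts were 3 (1.26%) and 1 (0.42%), against 1.73% and 1.34% of all peaks. At 72 h against 48 h they were 1 (0.42%) and 5 (2.1%), against 1.37% and 1.8%. The replicate block by V number gave the same counts of raised distal peaks. Of all 71318 peaks, the block fit called 4120 higher and 5076 lower in the first comparison. It called 1156 and 881 in the second, and 897 and 1194 in the third. Columns of a group showed 1.8 times the variance of counting, against 2.21 to 3.47 times between times. The median log2 change at 48 h against 24 h, 0.004 over the 238, changed sign without V0 (-0.006), without V2 (-0.021) and in GFP low alone (-0.02). No named peak changed sign under the alternatives run. For GFP low against GFP high the rule had fixed the sign, so nothing is read from it there. The share with no other peak within 10 kb was 50% among raised distal peaks at or above the median level, against 60.1% among all 238. The alternative of each GFP level alone is given as a difference, with no test. Depth limits most values, since raised distal peaks had a median of 50.7 counts per column and a median standard error of L of 0.223. Among the named peaks, DESeq2 did not call 8 of 41 higher in GFP low, where it called 5.22% of all peaks higher. The rule used this contrast, so nothing is read from the count.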
